A study of Mus musculus with 16 samples.

Results

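Nucleosides enter and leave the intestinal epithelium through transporters and are then broken down or reused, and 7 genes of this traffic were followed here: Slc28a1, Slc28a2, Slc28a3, Slc29a1, Ada, Xdh and Upp1. The members were taken by gene symbol, 7 of the 24421 genes counted in each library, and the rule that takes them uses no threshold on a measured value. They had, however, been chosen with earlier results of these data known. Messenger RNA had been sequenced from epithelium released with EDTA from the jejunum and the ileum of wild-type C57BL6/J mice at postnatal day 6 (P6, suckling) and postnatal day 36 (P36, after weaning). The 16 libraries form 4 groups of 4, which are the P6 jejunum, the P6 ileum, the P36 jejunum and the P36 ileum. Each age had 4 mice, 2 of them female (mice 1 and 2) and 2 male (mice 3 and 4), and each mouse gave both regions, so that the mouse number pairs a jejunum with an ileum. No group carried a transgene, a deletion or a treatment, and different mice were used at P6 and at P36, so age cannot be told apart from diet or from the time of dissection. Per the study's methods the tissue was kept in EDTA for as long or longer at P36 as at P6.

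The counts were whole read pairs per gene on the mm10 genome. Library totals ran from 12159237 to 25947276 counts, with the smallest library in the P36 ileum (12159237 to 21776158). Levels are given as CPM, the usual depth-scaled count, with library sizes corrected by edgeR's TMM factors. The 7 epithelial markers Epcam, Cdh1, Krt8, Krt18, Krt19, Vil1 and Cdx2 were at 0 in none of the groups and summed to between 3970 and 15400 CPM. Region labels were checked on genes chosen after their values were seen. Gata4, a transcription factor of the proximal intestine, lay between 155 and 193 CPM in the 8 jejunum libraries and between 0.735 and 34.7 CPM in the 8 ileum libraries. The ileal bile acid transporter Slc10a2 lay between 158 and 560 CPM in the P36 ileum and at no more than 1.59 CPM in the P36 jejunum.

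Certain libraries stood apart within their groups and bear on the members below. The ileum of P36 mouse 1 had the highest Gata4 of its group (31.6 CPM against 0.735 to 5.56 CPM in the other 3) together with the highest Slc10a2 (560 CPM). Among the P6 ileum libraries, mouse 4 had the highest Gata4 (34.7 CPM) and the lowest epithelial marker sum (3970 CPM, against 6240 to 6660 CPM). It also differed the most from the others over all genes. Mouse 2 had the most smooth muscle and fibroblast RNA (375 CPM summed over 7 genes, against 16.8 to 33.2 CPM). The neighbour of Slc28a2, Gm14085, was high in both regions of P6 mouse 3 and P36 mouse 4, as described with Slc28a2. Values without the ileum of P36 mouse 1 are given with each member that it moved the most.

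Nucleic acids of the diet are cut in the intestinal lumen to nucleotides and then to nucleosides, which enterocytes take up. The SLC28 family (concentrative nucleoside transporters) carries nucleosides uphill with sodium at the brush border: the product of Slc28a1 prefers pyrimidine nucleosides, that of Slc28a2 purine nucleosides and uridine, and that of Slc28a3 takes both kinds. The product of Slc29a1, an equilibrative transporter, lets nucleosides move down their gradient in either direction. Inside the cell or at its surface, adenosine deaminase (Ada) turns adenosine into inosine, and xanthine dehydrogenase (Xdh) makes xanthine and then urate, late steps of purine breakdown. Uridine phosphorylase (Upp1) splits uridine to uracil and is therefore a pyrimidine enzyme that stands beside the purine ones. In bulk epithelium, fewer cells of a type and less RNA per cell cannot be told apart.

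In the mm10 annotation used for counting, Slc28a1 lies at chr7:81114799-81170416 on the plus strand (2846 bases of exon), Slc28a2 at chr2:122426477-122461130 on the plus strand (3904 bases) and Slc28a3 at chr13:58553308-58610877 on the minus strand (4564 bases). Slc29a1 lies at chr17:45585200-45599603 on the minus strand, Ada at chr2:163726571-163750239 on the minus strand, Xdh at chr17:73883895-73950196 on the minus strand and Upp1 at chr11:9118008-9136170 on the plus strand. The promoters of the SLC28 genes are shown because these members of the same family had opposite courses with age. RefSeq (GRCm38.p6) gave a promoter for 6 of the 7 members, in 15 windows that hold the 250 bases before a start in RefSeq. Such a start can differ from that of the counting annotation. The Slc28a2 window ends at chr2:122426434, whereas its counted exons begin at chr2:122426477. Slc29a1 had 8 of these windows and Upp1 had 3, and Xdh had no entry. In the sequences, written 5′ to 3′ on the strand of the gene, capitals mark exact matches on either strand to the motif letters named below.
Slc28a1, chr7:81114549-81114798, plus strand: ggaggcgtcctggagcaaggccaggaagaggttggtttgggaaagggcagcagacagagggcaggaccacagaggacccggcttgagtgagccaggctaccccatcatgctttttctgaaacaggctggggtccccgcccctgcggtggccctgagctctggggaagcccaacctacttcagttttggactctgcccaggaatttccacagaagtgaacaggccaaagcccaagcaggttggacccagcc
Slc28a2, chr2:122426185-122426434, plus strand: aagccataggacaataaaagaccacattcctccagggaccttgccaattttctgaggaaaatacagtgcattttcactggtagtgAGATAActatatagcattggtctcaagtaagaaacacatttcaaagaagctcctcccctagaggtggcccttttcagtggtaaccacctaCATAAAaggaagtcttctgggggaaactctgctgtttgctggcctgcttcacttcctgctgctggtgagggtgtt
Slc28a3, chr13:58610878-58611127, minus strand: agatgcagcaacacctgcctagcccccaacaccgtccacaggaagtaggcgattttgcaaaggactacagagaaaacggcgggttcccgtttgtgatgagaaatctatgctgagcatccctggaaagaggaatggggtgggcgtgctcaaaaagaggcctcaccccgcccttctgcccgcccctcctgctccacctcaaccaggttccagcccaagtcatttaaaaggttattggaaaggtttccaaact

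The motifs searched were, for the GATA family of factors, AGATAA, for the CDX factors TTTATG, for HNF4 the letters CAAAGTCC, for HNF1 the letters GTTAAT and for PRDM1 the letters GAAAGT. In the same window of all 32851 RefSeq promoters they occurred in 9.99%, 10.8%, 1.2%, 6.43% and 12.3%, in that order. Slc28a2 held a GATA match at 165 to 160 bases before its RefSeq start. A CDX match lay at 75 to 70 bases before that start, and neither overlapped another match. The windows of Slc28a1, Slc28a3, Ada and Upp1 held none of these letters, and 3 of the 8 windows of Slc29a1 held at least 1 match. These are descriptions of the letters in short windows and not of binding.

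All 16 libraries were fitted together with edgeR's quasi-likelihood test, and a gene passed at a Benjamini-Hochberg adjusted p below 0.05 over the 13429 genes with enough counts. All 7 members had enough counts for the test, Slc28a3 through its P36 libraries and Slc28a1 and Upp1 mostly through theirs. A positive log2 fold change means a higher level in the jejunum or, with age, at P36, and SE is its standard error.

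With age, 4 members rose and 1 fell in the jejunum, where 24.7% of all tested genes rose and 26.9% fell. In the ileum 5 members rose and 1 fell, beside 25.5% and 30.1% of all tested genes. Slc28a3, Ada and Upp1 rose in both regions, Slc28a2 fell in both, Slc28a1 rose in the jejunum, and Slc29a1 and Xdh rose in the ileum. The median log2 fold change over the 7 members was 4.71 in the jejunum and 1.26 in the ileum. Over all tested genes it was -0.01 and -0.03. Because the members were chosen with earlier results of these data known, counts and medians set beside all genes are only a description. Between the regions, 1 member was higher in the P6 jejunum (Xdh) and 2 in the P36 jejunum (Slc28a1 and Xdh), and none was higher in the ileum at either age. Of all tested genes, 11.1% passed as higher in the jejunum and 14.8% as higher in the ileum at P6, and 8.30% and 7.80% at P36. Slc29a1 was the only member higher in the ileum at an unadjusted p below 0.05, at P36 and not at P6, and with DESeq2 no member passed as higher in the ileum. The region difference itself changed with age for 1 member, Slc28a1, beside 8.69% of all tested genes.

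**Figure D1:**
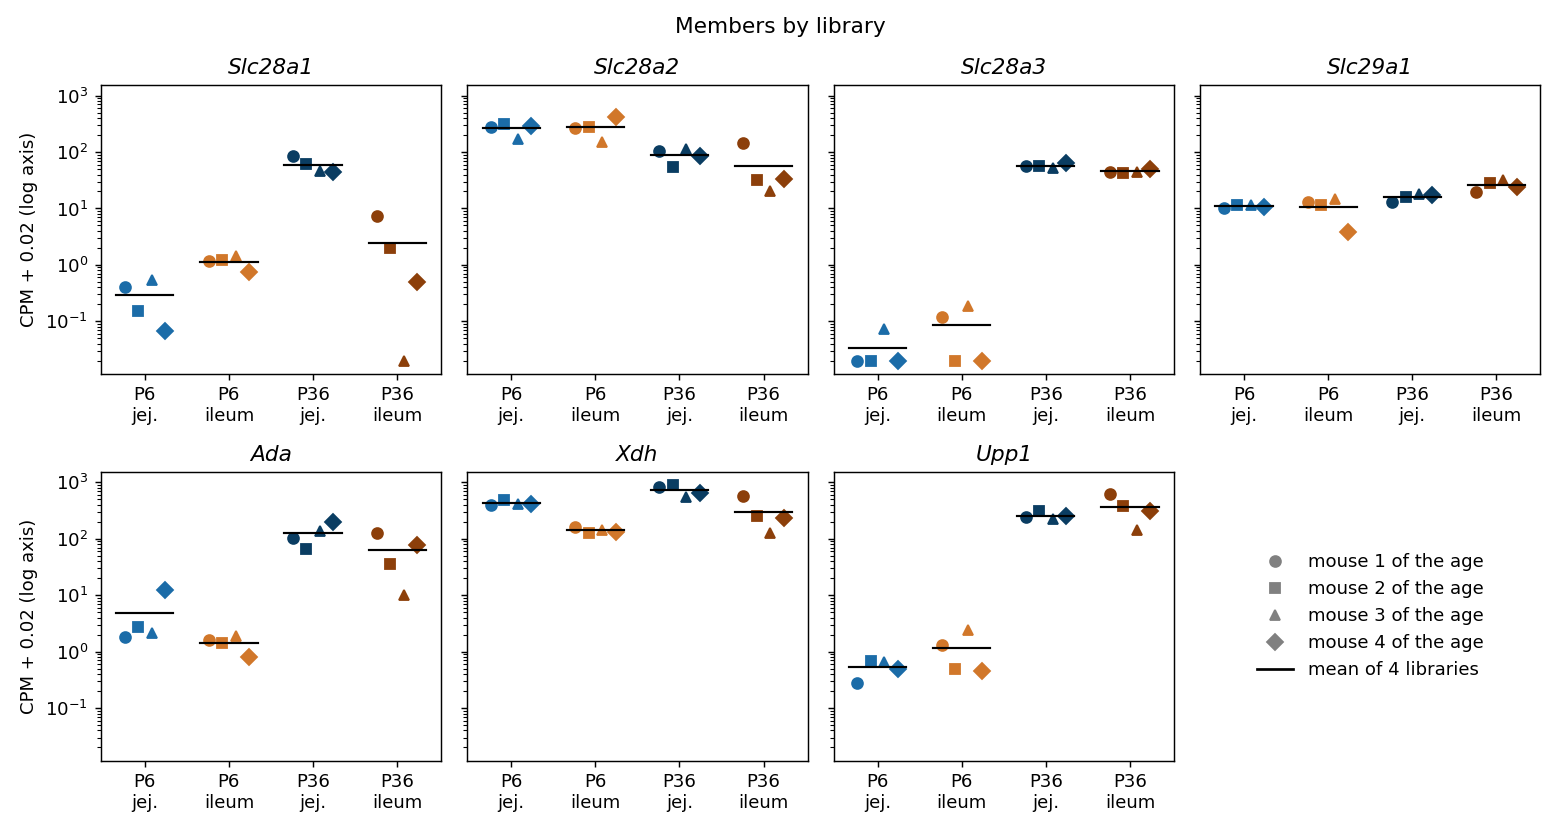
CPM of the 7 members in each library (log axis, with 0.02 added so that libraries at 0 can be drawn), by group, with a symbol for each mouse of an age and a line at the mean of the 4 libraries. Upp1 lies at 2.39 CPM or less at P6 and at 141 CPM or more at P36, Slc28a2 lies lower at P36, and Slc28a1 exceeds 7.19 CPM in the P36 jejunum alone.

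Slc28a1, the pyrimidine-preferring concentrative transporter, was high in 1 of the 4 groups. In the P36 jejunum it lay at 83.7, 60.4, 45.9 and 44.1 CPM in mice 1 to 4. In the P36 ileum the same mice had 7.19, 1.98, 0 and 0.475 CPM, so that the regions did not overlap and the jejunum was higher in 4 of 4 mice. At P6 the jejunum libraries had 9, 3, 10 and 1 counts (0.393, 0.134, 0.525 and 0.0479 CPM) and the ileum libraries 23, 28, 26 and 15 counts (1.14, 1.21, 1.41 and 0.736 CPM).

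At P36 Slc28a1 was therefore higher in the jejunum (58.5 ± 18.3 CPM, SD, n = 4) than in the ileum (2.41 ± 3.29 CPM), a log2 fold change of 4.59 by edgeR (SE 0.82, adjusted p = 0.00114). Without the ileum of mouse 1 this value was 6.19 (adjusted p = 6.94e-05). At P6 the order was the other way, with every ileum library above every jejunum library, at a log2 difference of -2.02 (SE 1.01, adjusted p = 0.159) that did not pass in the fit of all libraries. It passed in a fit of the 8 P6 libraries alone (-2.01, adjusted p = 0.0448). The P6 difference minus the P36 difference was -6.62 (SE 1.27, adjusted p = 0.00354), and -8.21 without the ileum of P36 mouse 1. From P6 to P36 the jejunum rose by 7.72 on the log2 scale (SE 1.01, adjusted p = 9.51e-06), from 23 counts over 4 libraries to 4642.

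In the ileum the P36 libraries of Slc28a1 spread to both sides of the P6 ones, with a log2 difference of 1.11 (SE 0.82, adjusted p = 0.265). This value was -0.49 without P36 mouse 1 (adjusted p = 0.605) and 1.55 without P36 mouse 3 (adjusted p = 0.0463). The ileum library of P36 mouse 3, with 0 of its counts on Slc28a1, was also the lowest of its group in Gata4 (0.735 CPM), and mouse 1, with 130 counts, was the highest. Mouse 3 was also the lowest of the group in the ileal gene Slc10a2 (158 CPM) and mouse 1 the highest (560 CPM). The female mice had the higher Slc28a1 values in both P36 regions. The part of these orders in the spread was not tested. The order of the group means was P36 jejunum, P36 ileum, P6 ileum and P6 jejunum, and of neighbours in it only the P36 jejunum stood beyond the test from the next.

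Slc28a2, the purine-preferring concentrative transporter, fell with age in both regions. In the P6 jejunum mice 1 to 4 had 276, 316, 173 and 290 CPM. In the P6 ileum they had 270, 277, 151 and 423 CPM, so that the regions overlapped and mouse 3 was the lowest in each. At P36 the jejunum had 105, 54.8, 113 and 85.4 CPM and the ileum 145, 31.5, 20 and 33.9 CPM.

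In the jejunum every P36 library lay below every P6 library, with a log2 difference of -1.56 (SE 0.50, adjusted p = 0.0162). Leaving out the P36 jejunum of mouse 2 gave -1.38 (adjusted p = 0.0511), which missed the threshold. In the ileum the change was -2.28 (SE 0.51, adjusted p = 0.00142), and -3.30 without P36 mouse 1 (adjusted p = 3.22e-06), whose 145 CPM came close to the lowest P6 library at 151 CPM. The regions did not differ past the test at P6 (log2 fold change -0.09, SE 0.49, 95% interval -1.13 to 0.95, adjusted p = 0.915). At P36 they did not with all libraries (0.63, SE 0.49, interval -0.42 to 1.68, adjusted p = 0.444) but did without the ileum of mouse 1 (1.66, adjusted p = 0.00315). That library also moved the interaction, from -0.72 (adjusted p = 0.567) to -1.74 (adjusted p = 0.022). By group mean the order was P6 ileum (280 ± 111 CPM), P6 jejunum (264 ± 62.6), P36 jejunum (89.5 ± 25.9) and P36 ileum (57.7 ± 58.8), where the neighbours within an age did not differ past the test.

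Next to Slc28a2 on the same strand lies Gm14085 (chr2:122484941-122528040), which RefSeq names Slc28a2b and whose coding sequence is a near copy. The longest open reading frames of GENCODE vM21 transcripts Slc28a2-201 and Gm14085-201 were both 1983 bases long and were identical at 1875 positions (94.6%). Of all windows of 50 bases in the Slc28a2 transcript, 39.4% occurred without a mismatch in that of Gm14085, and 11.7% of windows of 150 bases did. Among successive stretches of 90 bases from the first base of the reading frames, bases 361 to 450 differ the most. They are shown with their 33 differences in capitals, since only reads over such bases can tell the genes apart.
Slc28a2: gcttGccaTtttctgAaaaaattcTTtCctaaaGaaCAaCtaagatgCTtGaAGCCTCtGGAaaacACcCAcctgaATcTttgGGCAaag
Gm14085: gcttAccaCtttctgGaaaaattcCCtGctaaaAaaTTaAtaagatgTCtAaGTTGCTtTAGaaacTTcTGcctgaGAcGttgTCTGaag

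Reads of either gene can be lost or misplaced in the shared windows, so both values carry this uncertainty. Gm14085 was low in most libraries and high in both regions of a single mouse at each age. At P6 mouse 3 had 159 counts in the jejunum and 191 in the ileum, against 8 to 20 counts in the other 6 libraries. At P36 mouse 4 had 291 counts in the jejunum and 50 in the ileum, against 0 to 16 in the others. P6 mouse 3 was also the mouse with the lowest Slc28a2 of its age in each region, whereas P36 mouse 4 was not the lowest in either. The sum of both genes in P6 mouse 3 was still the lowest of its groups, at 182 CPM (jejunum) and 162 CPM (ileum). When the counts of both genes were summed and tested as 1 gene, an alternative added after the data had been seen, the change with age was -1.51 in the jejunum (adjusted p = 0.0165) and -2.27 in the ileum (adjusted p = 0.00121).

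**Figure D2:**
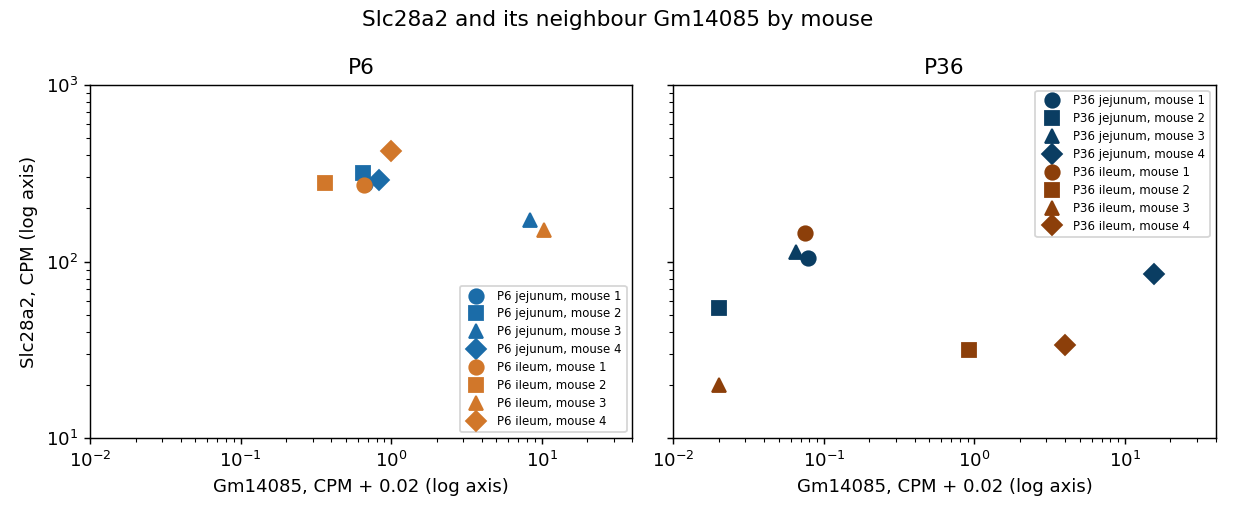
CPM of Slc28a2 against CPM of Gm14085 (plus 0.02) in each library on log axes, at P6 on the left and at P36 on the right, with a symbol for each mouse and a colour for each region. P6 mouse 3 (8.35 and 10.4 CPM of Gm14085) and P36 mouse 4 (15.5 and 3.96 CPM) lie to the right of the other mice in both regions.

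Slc28a3, the concentrative transporter with the broadest substrate range, was nearly absent at P6 and present in every P36 library. The 4 P6 jejunum libraries held 1 count in all, in mouse 3, and the 4 P6 ileum libraries held 5, with 2 in mouse 1 and 3 in mouse 3. At P36 the jejunum had 57.4, 55.9, 53.2 and 63.8 CPM in mice 1 to 4 and the ileum 45.2, 42.6, 44.6 and 49.5 CPM. The SD was a smaller share of the mean than for any other member at P36, and every P36 library lay above every P6 library.

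Over a whole group, 4623 counts at P36 stood against 1 at P6 in the jejunum, a ratio of 4880 per effective library size with a 95% counting interval of 876 to 193000. In the ileum 3288 counts stood against 5, a ratio of 743 (318 to 2290). These intervals cover counting error only. The fitted log2 fold changes, 11.64 in the jejunum (SE 0.48, adjusted p = 4.37e-11) and 9.40 in the ileum (SE 0.42, adjusted p = 8.12e-11), passed but depend on the prior count of the fit, and were 13.18 without the P6 jejunum of mouse 3 and 10.25 without the P6 ileum of mouse 3. Between the P36 regions every jejunum library lay above every ileum library by a small margin, at a log2 difference of 0.34 (SE 0.24, 95% interval -0.17 to 0.85, adjusted p = 0.394) in the fit of all libraries. A fit of only the 8 P36 libraries gave 0.35 (adjusted p = 0.0234), and DESeq2 gave 0.33 (adjusted p = 0.0434). The regions at P6 were too sparse to compare at this depth, and the interaction for Slc28a3 did not pass (adjusted p = 0.207).

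Per kilobase of exon Slc28a1, Slc28a2 and Slc28a3 can be set beside each other within a library. Gm14085 was left out of their sum. It reached 2.77 CPM per kilobase beside 38.8 of Slc28a2 in the P6 ileum of mouse 3, and 4.15 in the P36 jejunum of mouse 4, its highest value. At P6 Slc28a2 made up between 98.6% and 100% of their summed level in each of the 8 libraries. In the P36 jejunum the sum was shared, with 36.5 ± 8.36% (SD, n = 4) from Slc28a1, 40.5 ± 8.88% from Slc28a2 and 22.9 ± 4.25% from Slc28a3. In the P36 ileum Slc28a1 held 2.45 ± 2.41%, Slc28a2 49.5 ± 17.6% and Slc28a3 48.1 ± 19.7%.

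The summed level itself was 67.7 ± 16 CPM per kilobase in the P6 jejunum, 72.2 ± 28.4 in the P6 ileum, 56.1 ± 9.34 at P36 in the jejunum and 25.6 ± 16.2 at P36 in the ileum. Within the P36 ileum mouse 1 had 49.7 CPM per kilobase, of which Slc28a2 was 75%, while the other 3 mice had 14.9 to 19.7, of which Slc28a2 was 34.4% to 44.6%. The sums of the jejunum overlapped between the ages (44.6 to 81 at P6, 47.5 to 68.9 at P36), although the genes behind them changed.

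**Figure D3:**
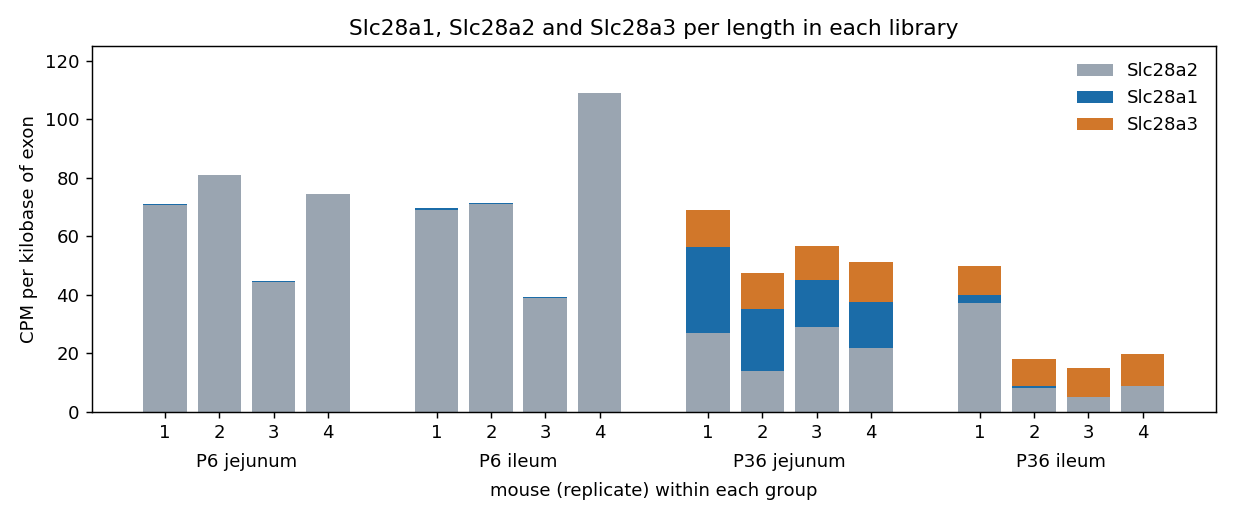
Stacked bars of Slc28a2, Slc28a1 and Slc28a3, without Gm14085, in CPM per kilobase of exon, a bar for each library with its mouse number, by group. The P6 bars are almost wholly Slc28a2, the P36 jejunum bars hold all 3 genes, and in the P36 ileum mouse 1 (49.7 CPM per kilobase) stands above the other 3 mice (14.9 to 19.7).

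Slc29a1, the equilibrative transporter, was found in all 16 libraries, at 3.83 to 31.9 CPM. In the jejunum mice 1 to 4 had 10.3, 11.5, 11.4 and 10.6 CPM at P6 and 12.8, 15.9, 18 and 17.1 CPM at P36. In the ileum they had 13.2, 11.5, 14.6 and 3.83 CPM at P6 and 19.7, 27.9, 31.9 and 23.8 CPM at P36. The low P6 ileum library, mouse 4, was the one with the highest Gata4 and the highest Slc28a2 of its group.

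In the ileum Slc29a1 rose with age by 1.26 on the log2 scale (SE 0.29, adjusted p = 0.00175), and leaving out each library in turn gave 0.98 to 1.45, past the test each time. In the jejunum the ages did not overlap either, but the log2 fold change of 0.54 (SE 0.29, adjusted p = 0.129) did not pass in the fit of all libraries. It passed in a fit of the 8 jejunum libraries alone (0.55, adjusted p = 0.0021). At P36 every ileum library lay above every jejunum library, at a log2 difference of -0.69 (SE 0.29, adjusted p = 0.121), which passed in the fit of the 8 P36 libraries (adjusted p = 0.0178). At P6 the regions overlapped (0.02, SE 0.29, 95% interval -0.60 to 0.64, adjusted p = 0.967). The order of the group means was P36 ileum (25.8 ± 5.24 CPM), P36 jejunum (16 ± 2.26), P6 jejunum (10.9 ± 0.6) and P6 ileum (10.8 ± 4.82), and no neighbours in it differed past the test with all libraries fitted.

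Ada, which deaminates adenosine, rose with age in both regions. In the P6 jejunum mice 1 to 4 had 1.83, 2.72, 2.15 and 12.5 CPM, and the P6 ileum had 1.58, 1.42, 1.84 and 0.785 CPM. In the P36 jejunum they had 103, 65.4, 138 and 197 CPM and in the P36 ileum 126, 35.1, 10.2 and 78.6 CPM. No P36 library overlapped a P6 library of its region, while the regions overlapped at each age.

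The log2 fold change of Ada with age was 4.71 in the jejunum (SE 0.76, adjusted p = 7.92e-05) and 5.47 in the ileum (SE 0.81, adjusted p = 3.36e-05). Without the jejunum of P6 mouse 4 the jejunum value was 5.81, and without the ileum of P36 mouse 1 the ileum value was 4.87. The regions differed by 1.77 at P6 (SE 0.75, adjusted p = 0.0973) and by 1.01 at P36 (SE 0.65, adjusted p = 0.336), and neither passed. The P6 value was 0.67 without the jejunum of mouse 4, and the P36 value was 1.62 without the ileum of mouse 1 (adjusted p = 0.113). In order, the group means were P36 jejunum (126 ± 55.9 CPM), P36 ileum (62.5 ± 51), P6 jejunum (4.8 ± 5.14) and P6 ileum (1.41 ± 0.45), and the neighbours of the same age did not differ past the test.

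Lymphocytes are known for high ADA activity, so T cell genes were set beside Ada. The 7 T cell markers summed to between 9.97 and 133 CPM in the P36 jejunum and to between 6.03 and 17.8 CPM in the P36 ileum, against 2.98 to 13.9 CPM at P6, and 6 of the 6 tested rose in the jejunum with age and 1 of 6 in the ileum. In the P36 jejunum the summed markers were 94.4, 9.97, 133 and 15.6 CPM in mice 1 to 4, so the highest Ada library (mouse 4, 197 CPM) had fewer T cell transcripts than mice 1 and 3. In the P36 ileum the mouse with the highest Ada (mouse 1, 126 CPM) had the lowest T cell sum (6.03 CPM). The part of lymphocytes in the rise of Ada was not tested, and the order of libraries within a group does not address it. The 4 B and plasma cell markers rose in both regions as well, from at most 0.192 CPM (P6 jejunum) and 1.47 CPM (P6 ileum) to between 3.71 and 63.1 CPM at P36.

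Xdh, which makes xanthine and urate, was abundant in all groups and passed the test between regions at both ages. At P6 the jejunum had 404, 493, 408 and 421 CPM in mice 1 to 4 and the ileum 165, 128, 142 and 130 CPM. At P36 the jejunum had 841, 906, 562 and 648 CPM and the ileum 581, 256, 127 and 237 CPM. The jejunum was higher in 8 of 8 mice, and the regions overlapped only at P36, where the ileum of mouse 1 reached the lowest jejunum library. In the P36 jejunum the 2 female mice had the higher values, a difference that was not tested.

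Xdh was higher in the jejunum by 1.61 on the log2 scale at P6 (SE 0.33, adjusted p = 0.00187) and by 1.30 at P36 (SE 0.33, adjusted p = 0.0121), which was 1.84 without the ileum of P36 mouse 1 (adjusted p = 7.09e-05). The interaction was 0.31 (SE 0.45, 95% interval -0.65 to 1.27, adjusted p = 0.715) and -0.23 without the ileum of P36 mouse 1. With age Xdh rose in the ileum by 1.09 (SE 0.32, adjusted p = 0.00967), although its groups overlapped there. Without the ileum of P36 mouse 1, at 581 CPM against 127 to 256 CPM in the other mice, this rise was 0.55 (adjusted p = 0.0486). In the jejunum, where the ages did not overlap, the change of 0.78 (SE 0.32, adjusted p = 0.0541) missed the threshold. That call stayed the same in 7 of 8 fits that each left out 1 library. The change also missed the threshold with median-of-ratios scaling (0.79, adjusted p = 0.0519), no filter (0.77, adjusted p = 0.0648) and a mean of at least 1 CPM (0.78, adjusted p = 0.0523). It passed under DESeq2 (0.79, adjusted p = 0.0325), with library totals in place of TMM (0.87, adjusted p = 0.0171), with sex as a covariate (0.74, adjusted p = 0.0381), in the 8 jejunum libraries alone (0.79, adjusted p = 0.000932) and without the P36 jejunum of mouse 3 (0.97, adjusted p = 0.0324). The order of the group means was P36 jejunum (739 ± 161 CPM), P6 jejunum (431 ± 41.9), P36 ileum (300 ± 196) and P6 ileum (141 ± 17.2). The jejunum groups next to each other in it did not differ past the test, the ileum groups did, and the P6 jejunum was not compared with the P36 ileum.

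Upp1, which splits uridine, was near 0 at P6 and reached 141 to 613 CPM at P36. The P6 jejunum libraries had 6, 15, 12 and 10 counts and the P6 ileum libraries 26, 11, 44 and 9 counts. At P36 the jejunum had 245, 307, 225 and 251 CPM and the ileum 613, 387, 141 and 306 CPM. The ages did not overlap in either region, and the regions overlapped at each age.

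The log2 fold change of Upp1 with age was 8.97 in the jejunum (SE 0.61, adjusted p = 5.79e-09) and 8.32 in the ileum (SE 0.58, adjusted p = 8.52e-09). It was 8.96 in the ileum without P6 mouse 3, the library with 44 counts, and 7.95 without P36 mouse 1 (adjusted p = 1.4e-08). Between regions the log2 fold change was -1.14 at P6 (SE 0.58, 95% interval -2.38 to 0.10, adjusted p = 0.166) and -0.49 at P36 (SE 0.41, interval -1.36 to 0.37, adjusted p = 0.47), the latter -0.11 without the ileum of P36 mouse 1. The order of the group means was P36 ileum (362 ± 196 CPM), P36 jejunum (257 ± 35.2), P6 ileum (1.15 ± 0.914) and P6 jejunum (0.51 ± 0.185), where groups of the same age did not differ past the test.

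**Figure D4:**
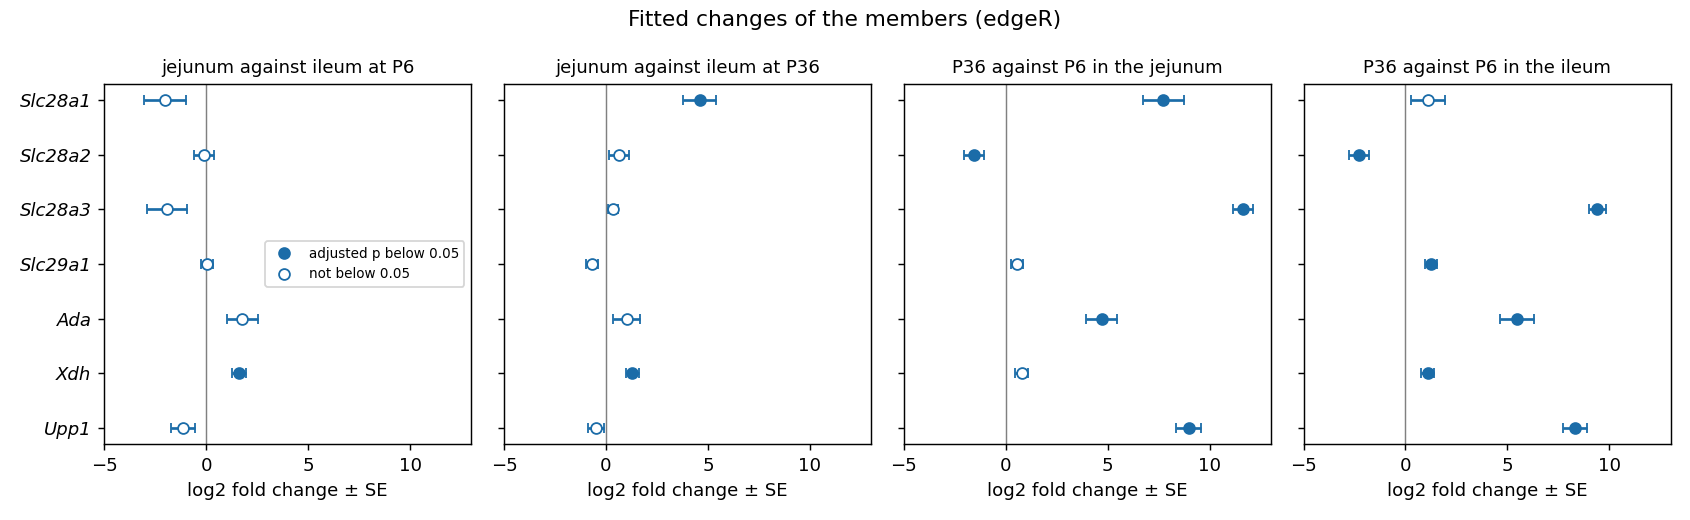
Log2 fold changes of the 7 members with their SE from the edgeR fit of all 16 libraries, in 4 panels, 1 for each comparison; filled points have an adjusted p below 0.05. The age panels reach from -2.28 (Slc28a2, ileum) to 11.64 (Slc28a3, jejunum), and the region panels have 3 filled points, for Xdh at both ages and Slc28a1 at P36.

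Compared per kilobase of exon, the leading members differed between the ages. At P6 Xdh (93.5 ± 9.08 CPM per kilobase in the jejunum, 30.7 ± 3.73 in the ileum) and Slc28a2 (67.6 ± 16 and 71.8 ± 28.5) were the highest, Slc29a1 stood at 4.43 ± 0.242 and 4.37 ± 1.95, and the other 4 members were at no more than 2.82. At P36 Upp1 (168 ± 23 and 236 ± 128) and Xdh (160 ± 34.9 and 65.1 ± 42.4) led, followed by Ada (73.9 ± 32.8 and 36.7 ± 29.9).

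Several members shared the same odd library. In the P36 ileum, mouse 1 was the highest in Slc28a1, Slc28a2, Ada, Xdh and Upp1 and the lowest in Slc29a1, and mouse 3 was the lowest in the first 5 and the highest in Slc29a1. Slc28a3 did not follow this order, with mouse 4 the highest and mouse 2 the lowest. The same ileum libraries were the extremes of Gata4 (31.6 CPM in mouse 1 and 0.735 CPM in mouse 3) and of Slc10a2 (560 and 158 CPM). Mouse 1 also had the highest sum of the 5 villus tip markers (1140 CPM, against 486 to 728 CPM) and mouse 3 the highest sum of the 5 crypt and cycling markers (1490 CPM, against 695 to 1190 CPM). The part of these orders in the spread of the members was not tested.

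The genes with the most similar course over the 16 libraries were found by Pearson's correlation of log2 CPM, given as a description, since the libraries share 4 group means. For Slc28a1 these included Ces2h (0.952) and Ppef2 (0.949), for Slc28a2 Depdc7 (0.960), Crebrf (0.949) and Phf21a (0.949), and for Slc28a3 Car4 (0.995), Car9 (0.994) and Atp10b (0.993). Slc29a1 was closest to Foxk1 (0.979), Prmt7 (0.978) and Snrpb (0.976). Ada was closest to Stap2 (0.970), Cdc42ep2 (0.969) and the urate transporter gene Slc2a9 (0.968). Xdh was closest to Soat2 (0.982), 1700019G17Rik (0.973) and H2-Q1 (0.972), and Upp1 to Tldc2 (0.993), Batf2 (0.993) and Car4 (0.992).

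The other genes of nucleoside handling were taken from lists by role, 61 tested genes besides the members. Of these, 19 rose and 14 fell with age in the jejunum, 22 rose and 18 fell in the ileum, and by region 8 passed toward the jejunum and 10 toward the ileum at P6, and 13 and 6 at P36. The interaction passed for 8 of the 61. The counts of single lists below include the members where a list holds them. These lists too were chosen with earlier results of these data known. Over all tested genes the shares were 24.7% and 26.9% in the jejunum and 25.5% and 30.1% in the ileum with age, 11.1% and 14.8% by region at P6, 8.30% and 7.80% by region at P36 and 8.69% for the interaction, and the list counts below are a description to be read beside them.

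Among 9 tested nucleoside and nucleobase transporters, members included, 3 rose and 3 fell with age in each region. Slc43a3, a purine nucleobase transporter, fell from 109 ± 12.9 to 0.831 ± 0.392 CPM in the jejunum and from 54.7 ± 12.1 to 0.269 ± 0.118 CPM in the ileum, with log2 fold changes of -7.02 (SE 0.32, adjusted p = 9.39e-11) and -7.67 (SE 0.36, adjusted p = 1.17e-10). It was also higher in the jejunum at P6 (0.99, SE 0.24, adjusted p = 0.00577) and at P36 (1.64, SE 0.40, adjusted p = 0.0106). Slc29a3, the lysosomal equilibrative transporter, fell by 1.54 in the jejunum (adjusted p = 6.27e-07) and by 2.15 in the ileum (adjusted p = 1.92e-08) and was lower in the jejunum than in the ileum at P6 (-0.87, adjusted p = 0.000606). Slc29a4 rose by 2.78 in the ileum (adjusted p = 6.34e-05), to 3.54 ± 0.698 CPM, and was lower in the P36 jejunum (-1.79, adjusted p = 0.00768).

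Next come the enzymes that release nucleosides from nucleotides. Of 14 tested, 3 rose and 5 fell in the jejunum and 3 rose and 7 fell in the ileum, with a median log2 fold change of 0.11 in the jejunum and -0.73 in the ileum. Nt5e, the surface nucleotidase that makes adenosine from AMP, fell from 31.6 ± 4.64 to 7.24 ± 3.98 CPM in the jejunum (adjusted p = 0.00184) and from 97.8 ± 35.8 to 2.21 ± 1.68 CPM in the ileum (adjusted p = 8.92e-07). It was higher in the ileum at P6 (-1.63, adjusted p = 0.0189) and higher in the jejunum at P36 (1.75, adjusted p = 0.0323), and the difference changed with age (interaction -3.38, adjusted p = 0.00673). Enpp3 fell from 394 ± 268 to 14 ± 5.97 CPM in the ileum (adjusted p = 1.26e-06) and from 627 ± 118 to 144 ± 66.7 CPM in the jejunum (adjusted p = 0.00114). Alpi, the intestinal alkaline phosphatase, fell from 3490 ± 443 to 723 ± 89.1 CPM in the jejunum (adjusted p = 0.00117) and from 2380 ± 606 to 241 ± 217 CPM in the ileum (adjusted p = 5.62e-05). At P36, 6 of the 14 passed toward the jejunum and 0 toward the ileum, beside 8.30% and 7.80% of all tested genes.

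Of 10 tested genes of purine breakdown, members included, 2 rose and 2 fell in the jejunum and 5 rose and 2 fell in the ileum with age. The member Ada was among the rising genes in each region, and the member Xdh among those of the ileum. Pnp2, a purine nucleoside phosphorylase, rose from 30.6 ± 19.7 to 169 ± 15.6 CPM in the jejunum (adjusted p = 0.01). Gda, which deaminates guanine to xanthine, was like Xdh higher in the jejunum, by 2.44 at P6 (SE 0.47, adjusted p = 0.0012) and by 1.61 at P36 (SE 0.46, adjusted p = 0.0241). Ampd3, which deaminates AMP, was higher in the ileum at P6 (-1.99, SE 0.19, adjusted p = 1.84e-06) and at P36 (-1.12, SE 0.19, adjusted p = 0.00059). Urah, which acts on a product of urate, was higher in the jejunum at P6 (1.52, adjusted p = 0.000535) and changed its regional difference with age (interaction 1.81, adjusted p = 0.00528). Adal, a relative of Ada, fell in both regions (-0.94, adjusted p = 0.000831 and -1.63, adjusted p = 4.41e-06), opposite to Ada. Pnp2 and Pnp are close copies, and their counts carry the same uncertainty as those of Slc28a2 and Gm14085.

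Of 5 tested pyrimidine breakdown genes, 4 rose in the jejunum with age, and 3 rose and 1 fell in the ileum. The member Upp1 is counted among the rising genes in each region. Cda, cytidine deaminase, had group means of 14.8 ± 4.25 CPM (P6 jejunum), 0.744 ± 0.304 (P6 ileum), 177 ± 27 (P36 jejunum) and 23 ± 16.4 (P36 ileum). It was higher in the jejunum at P6 (4.29, SE 0.46, adjusted p = 6.7e-06) and at P36 (2.94, SE 0.39, adjusted p = 9.29e-05), and rose in both regions. Tymp, thymidine phosphorylase, rose by 3.36 in the jejunum (adjusted p = 0.000912) and by 3.21 in the ileum (adjusted p = 0.00253). Dpyd, the first enzyme of uracil reduction, fell in the ileum from 451 ± 77.4 to 175 ± 69.8 CPM (adjusted p = 7.27e-05) and was at 416 ± 19.5 and 363 ± 44.8 CPM in the jejunum (adjusted p = 0.478).

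Of 10 tested salvage genes, 3 rose and 3 fell in the jejunum and 3 rose and 5 fell in the ileum. The uridine-cytidine kinase Uck2 rose by 2.33 in the jejunum (adjusted p = 4.89e-07) and by 2.82 in the ileum (adjusted p = 7.35e-08), while the other kinase of this pair, Uck1, fell by 1.01 in the jejunum (adjusted p = 3e-05). The mitochondrial thymidine kinase Tk2 fell from 18.6 ± 1.6 to 2.02 ± 0.287 CPM in the jejunum (adjusted p = 1.07e-09). Adenosine kinase, Adk, which competes with Ada for adenosine, fell by 0.86 in the jejunum (adjusted p = 1.43e-05) and by 0.64 in the ileum (adjusted p = 0.000233). It was higher in the ileum at both ages, with log2 fold changes of -0.52 (adjusted p = 0.00338) and -0.74 (adjusted p = 0.000374).

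Of the 2 urate transporter genes, Slc2a9 rose by 1.79 in the jejunum (adjusted p = 7.72e-06) and by 1.79 in the ileum (adjusted p = 7.96e-06), and Abcg2 was higher in the ileum at P6 (-0.72, adjusted p = 0.0269) and at P36 (-0.81, adjusted p = 0.0219), the reverse of Xdh. Of 15 tested genes of purine and pyrimidine synthesis, 6 rose and 0 fell in the jejunum and 9 rose and 0 fell in the ileum, where 25.5% of all tested genes rose and 30.1% fell (24.7% and 26.9% in the jejunum). Prps1 had the smallest adjusted p of the list in each region (2.85, adjusted p = 1.34e-06, and 2.51, adjusted p = 4.52e-06). Of the 3 tested adenosine receptors, 1 rose and 2 fell in the jejunum and 1 fell in the ileum with age. Adora2b lay at 81.4 ± 11.5 CPM at P6 in the jejunum against 1.25 ± 0.771 in the ileum, and at 17.2 ± 2.75 against 0.16 ± 0.151 CPM at P36. Its regional log2 fold changes were 6.00 (SE 0.44, adjusted p = 1.34e-07) and 6.75 (SE 0.53, adjusted p = 6.6e-07), and it fell with age in both regions.

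**Figure D5:**
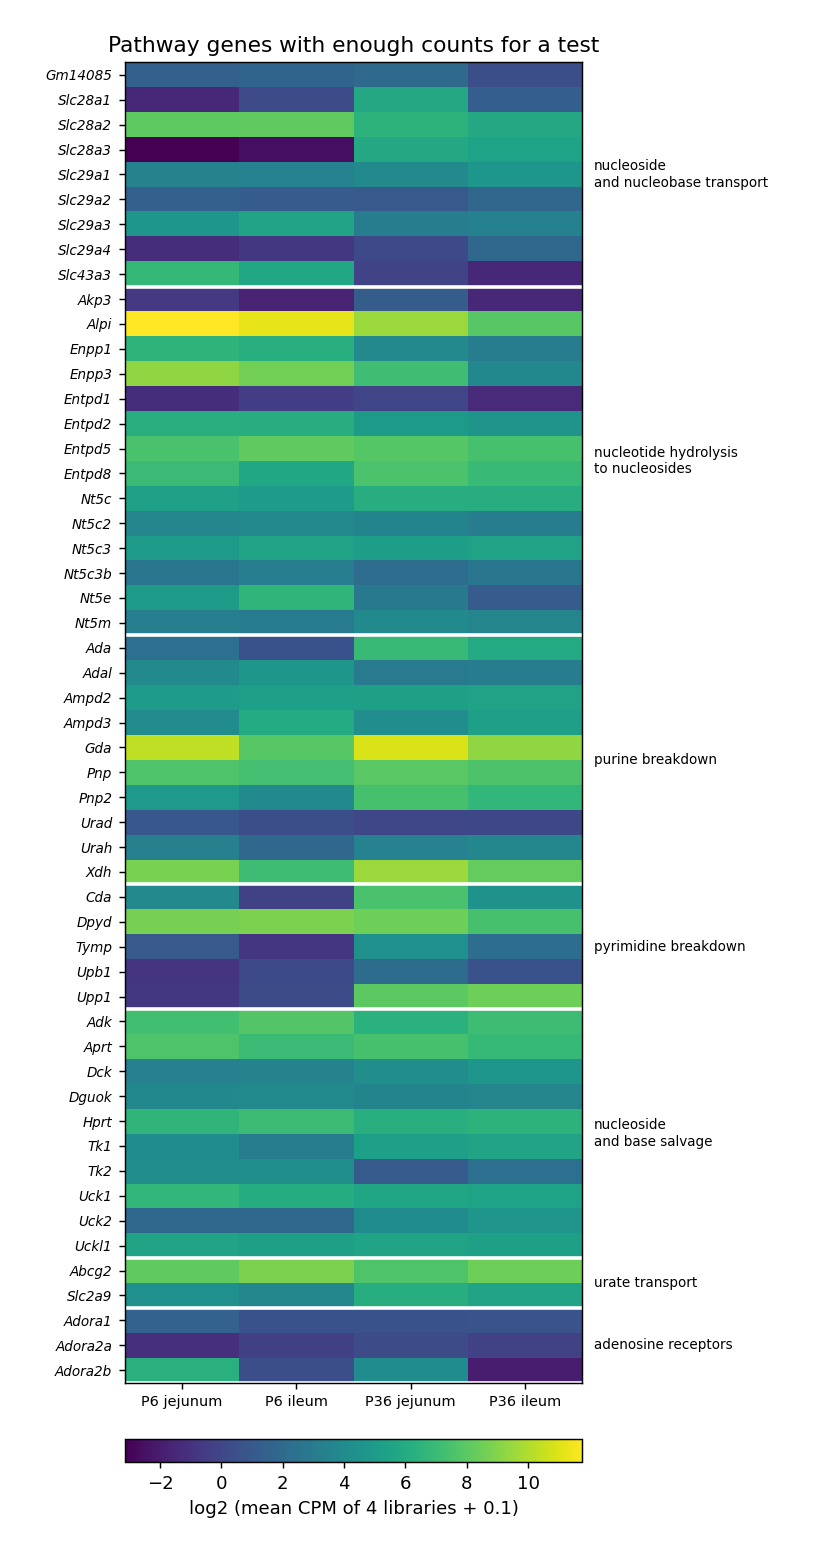
Mean CPM of 4 libraries (plus 0.1, log2 colour scale) of the tested pathway genes other than those of synthesis, in rows by list, in the 4 groups. Bright rows such as Alpi and Enpp3 dim from P6 to P36, Upp1 and Slc28a3 brighten, and Adora2b and Gda are brighter in the jejunum columns.

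Markers of other cells and of cell states were set beside these results, each list by its summed CPM. Smooth muscle and fibroblast markers (7 genes) were at 4.31 to 33.4 CPM in all libraries but 1, the P6 ileum of mouse 2 (375 CPM), and 4 of 4 tested were higher in the P6 ileum than in the P6 jejunum and fell with age in the ileum. Endothelial markers (3 genes) ran from 0.176 to 5.3 CPM apart from the same library (31.9 CPM). Of 2 tested endothelial genes, 1 fell with age in the jejunum and 2 did in the ileum. That library held the lowest Xdh of its group (128 CPM) and was neither the highest nor the lowest in Slc28a1, Slc28a2, Slc29a1, Ada or Upp1, and leaving it out changed no call of a member.

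Of 5 macrophage markers Csf1r was high at P6 (415 to 498 CPM in the jejunum and 152 to 333 CPM in the ileum), while the other 4 summed to at most 14 CPM at P6 and to 19.1 to 52.8 CPM at P36. In each region 1 of the 4 tested macrophage genes rose and 1 fell with age. Of 4 red blood cell markers, Hba-a1 and Hbb-bs were at 0 in all groups and the sum was at most 1.35 CPM. The 5 crypt and cycling markers summed to 291 to 678 CPM at P6 and to 695 to 1490 CPM at P36, and 2 rose and 1 fell in the jejunum and 3 rose and 1 fell in the ileum. The 5 villus tip markers, which include Nt5e, summed to 311 to 486 CPM at P6 and to 438 to 1140 CPM at P36, with 1 rising and 2 falling in each region. The 7 epithelial markers summed to 3970 to 6660 CPM at P6 and to 10600 to 15400 CPM at P36, and 3 rose and 1 fell in the jejunum and 3 rose and 0 fell in the ileum. Mean Krt8 went from 868 to 2890 CPM in the jejunum and from 970 to 5480 CPM in the ileum. Mean Epcam went from 1290 to 1500 CPM and from 1900 to 1730 CPM. The crypt and villus tip sums and the epithelial sum thus moved with age, while genes within each of these lists passed in both directions. Members too moved in both directions, and the part of these cell states in their changes was not tested.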

How the data were processed

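RNA of EDTA-released epithelium had been sequenced with a stranded messenger RNA kit. Before deposit the authors used Trimmomatic 0.38 for trimming and STAR (2.5.3 in the submitters' processing notes) for alignment to mm10, and counted fragments per gene with featureCounts of Subread 1.6.3 against UCSC genes, strand-specific. The deposited values are these raw counts, 1 file per library with 24421 genes and no row without a gene; 0 columns were left unmapped.

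Library totals ran from 12159237 to 25947276, and 18959 genes had a count. Replicates of a group differed by a chi-square of 13.2 to 272 per gene, so none was a copy of another. In the P6 ileum the pairs with mouse 4 had 226 to 272 and the other pairs 20.4 to 41. In the P36 ileum mice 1 and 3 had 265. Counts were fitted with edgeR 4.0.16 in R 4.3.3 (TMM, filterByExpr, quasi-likelihood F test) over all 16 libraries with 4 group means. The 4 comparisons and their interaction were adjusted by Benjamini-Hochberg over 13429 genes, with no fold minimum. SE is the log2 fold change divided by the square root of F. Log2 CPM for correlations used a prior count of 2. P-values measure the spread between libraries within groups, pooled over the 4 groups, with 4 mice per age. Both regions of a mouse entered as separate libraries, and the mouse was a block only in an alternative. The names of P6 mice 1 and 3 share a stem, as do those of mice 2 and 4, and its meaning is not stated. In the P6 jejunum the chi-square was 19.4 and 13.2 within a stem and 34.3 to 45.9 across stems. In the P6 ileum it was 20.4 (mice 1 and 3) and 265 (mice 2 and 4) within a stem and 40.9 to 272 across stems. Mice that share a stem may not be independent, which was not tested. Same-numbered libraries of an age come from the same mouse per the labels, and their deviations correlated at 0.157 to 0.391 (other mice -0.106 and -0.101).

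Alternatives were DESeq2 1.42.0, median-of-ratios scaling, library totals, no filter, a mean of at least 1 CPM, only the 8 libraries compared, a mouse block, sex as a covariate, a log2 fold minimum of 2 and leaving out each library; the counts of Slc28a2 and Gm14085 summed, and the pathway counts under all alternatives, were added after the data had been seen. Members and lists were chosen with earlier results of these data known. Genes named were the members, up to 4 genes of the smallest adjusted p per pathway list and comparison, and the 3 most correlated genes per member (1 is not reported here); other names were chosen after their values were seen. Lists covered nucleoside transport, nucleotide hydrolysis, purine and pyrimidine breakdown, salvage, urate transport, synthesis and adenosine receptors (79 genes, 68 tested), and 9 marker lists. Counting intervals are 95% and cover counting error only. Promoters came from RefSeq (GRCm38.p6) and transcripts from GENCODE vM21.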

Additional observations from a re-analysis of the deposited data

Results flagged for a closer look

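Of 28 member and group combinations searched for a library far from the other 3, 3 were found, where chance gives about 1 in 20. Slc28a2 reached 145 CPM in the ileum of P36 mouse 1, against 20 to 33.9 CPM in the other mice. Ada reached 12.5 CPM in the jejunum of P6 mouse 4, against 1.83 to 2.72 CPM. Slc28a3 was at 0.0525 CPM in the jejunum of P6 mouse 3, which is 1 count against 0 in the other 3 libraries. Beside 0 in the others any single count is flagged, so this case cannot be set against the chance rate. The regional difference of Slc28a1 changed with age by -6.62 on the log2 scale (edgeR adjusted p = 0.00354), the P6 difference minus that of P36. At P36 the jejunum was higher in 4 of 4 mice and at P6 the ileum was higher in 4 of 4. The P6 difference rests on 1 to 10 counts per jejunum library and 15 to 28 per ileum library. It did not pass in the fit of all libraries (-2.02, edgeR adjusted p = 0.159).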

How the results depend on the processing

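With only the 8 libraries compared, 2 members passed between the P6 regions and 4 between the P36 regions, in place of 1 and 2. With a log2 fold minimum of 2, 0 and 1 passed. Of the 68 tested pathway genes, members included, 3 passed between the P6 regions and 6 between the P36 regions under this minimum. With age 18 passed in the jejunum and 19 in the ileum, and 4 passed for the interaction (19, 21, 38, 46 and 9 without the minimum). Leaving out each library in turn gave 1 to 2 members past the interaction test, the 2 being Slc28a1 and Slc28a2 without the ileum of P36 mouse 1.

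The direction turned in values that had not passed. Slc29a1 between the P6 regions became -0.27 with library totals, which lowered the median of all genes by 0.29, and ran from -0.26 to 0.18 when each library was left out. The same ranges were -0.32 to 0.18 for Slc28a2 between the P6 regions, -0.34 to 1.11 for Ada and -0.23 to 0.56 for Xdh in the interaction, and -0.49 to 1.55 for Slc28a1 with age in the ileum. With the mouse as a block, the interaction of Ada was -0.04 (main 0.76), and the block changed no other direction and no call. The cause was not tested in any of these. Slc28a2 with age in the jejunum was lost without P36 mouse 2, and calls gained are given with each member. No member changed its call or direction with median-of-ratios scaling, no filter, a mean of at least 1 CPM or the summed counts.

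Limits: there were 4 mice per age, and the main fit pooled the error of each comparison over the 4 groups. It took both regions of a mouse as separate libraries. Age cannot be told apart from diet or dissection time. Differences of Slc28a3, Slc28a1 and Upp1 at P6 rest on 0 to 44 counts per library. Depth was lowest in the P36 ileum, and reads shared between Slc28a2 and Gm14085, or between Pnp and Pnp2, could not be reassigned from counts.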
